A study of Mus musculus with 2 samples.

Results

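The Schlafen genes are a family of growth regulators of blood cells, and the rule for this description took every array sequence whose gene name was Slfn1, Slfn2, Slfn3, Slfn4, Slfn5, Slfn8 or Slfn9. Of these 7 genes, 5 were found, with 8 sequences among 44170 on the array (5 of 24171 named genes). No sequence carried the name Slfn2 or Slfn8, so under these names only upstream bases are described. An unnamed sequence that may belong to Slfn2 is given below. The samples were LT-HSC, long-term stem cells of the blood that renew it for life, sorted by flow cytometry from femur marrow of C57/BL6 mice. The control group was wild type and the other group was a knockout of WASH, an activator of actin assembly on endosomes. Each genotype had 1 NimbleGen array, hybridised with Cy3-labelled total RNA. How WASH was deleted, the age of the mice and whether animals were pooled are not given in the sources used here. With 1 array per genotype no difference could be tested and no value has an error between animals. In sorted cells measured in bulk, fewer cells of a type and less RNA per cell cannot be told apart. The family was chosen by the knockout against control difference, through the low Slfn1 value, so its differences are a description and support nothing.

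Mouse Schlafen genes lie in a cluster on chromosome 11 and fall into short, intermediate and long forms. The long forms carry a helicase-like region that the others lack. Several members are induced by type I interferon, and short members have been tied to the resting state of T cells: forced Slfn1 slows the growth of thymocytes, and loss of Slfn2 breaks lymphocyte quiescence. In stem cells and myeloid cells, where growth and rest are tightly balanced, the family has been studied as a brake on division.

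The bases just before the start of each gene, with 2 short motifs marked, are shown to let the members be compared in sequence as well as in level. They come from RefSeq (build GRCm38.p6), which held all 7 genes, and cover the 250 bases upstream of the start, written 5′ to 3′ along the gene. Capitals mark the word ACTTCCTGG in the first 3 sequences and, in the last 2, the interferon-type core (GAAA, any 2 bases, then GAAA, on either strand). Both motifs were searched on both strands and do not overlap here. In that build the upstream window of Slfn1 lies at chr11:83116570-83116819 (plus strand), that of Slfn4 at chr11:83174936-83175185 (plus) and that of Slfn3 at chr11:83191080-83191329 (plus). The window of Slfn9 lies at chr11:82991831-82992080 (minus) and that of Slfn5 at chr11:82951852-82952101 (plus).
Slfn1: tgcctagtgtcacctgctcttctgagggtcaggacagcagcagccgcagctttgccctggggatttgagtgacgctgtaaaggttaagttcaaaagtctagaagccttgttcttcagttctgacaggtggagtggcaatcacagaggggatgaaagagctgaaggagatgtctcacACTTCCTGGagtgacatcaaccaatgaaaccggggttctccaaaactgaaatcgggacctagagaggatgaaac
Slfn4: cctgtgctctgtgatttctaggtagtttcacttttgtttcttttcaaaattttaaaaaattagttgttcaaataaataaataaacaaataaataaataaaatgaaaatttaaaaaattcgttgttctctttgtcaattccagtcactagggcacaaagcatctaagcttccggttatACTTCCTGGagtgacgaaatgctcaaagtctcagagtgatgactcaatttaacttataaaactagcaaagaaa
Slfn3: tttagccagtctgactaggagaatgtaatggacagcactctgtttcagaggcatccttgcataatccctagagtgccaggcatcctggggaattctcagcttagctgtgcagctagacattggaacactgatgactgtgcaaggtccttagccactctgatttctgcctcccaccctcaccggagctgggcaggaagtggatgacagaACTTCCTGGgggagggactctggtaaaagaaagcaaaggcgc
Slfn9: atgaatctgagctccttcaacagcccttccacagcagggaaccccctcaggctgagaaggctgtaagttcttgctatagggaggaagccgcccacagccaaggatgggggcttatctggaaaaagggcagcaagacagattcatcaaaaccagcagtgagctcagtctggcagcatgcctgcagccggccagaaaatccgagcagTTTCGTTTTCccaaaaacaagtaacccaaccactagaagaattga
Slfn5: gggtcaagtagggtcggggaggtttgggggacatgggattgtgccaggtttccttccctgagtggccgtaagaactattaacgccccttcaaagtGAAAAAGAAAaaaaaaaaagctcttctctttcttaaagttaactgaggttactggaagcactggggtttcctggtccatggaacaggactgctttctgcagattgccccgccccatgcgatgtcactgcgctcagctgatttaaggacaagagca

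The word ACTTCCTGG is the longest run common to the windows of Slfn1, Slfn2, Slfn3 and Slfn4. The search was set to those 4 genes, so the presence of the word there was fixed in advance and groups nothing. The word stood in 0.7% of all 32851 upstream windows. Its first base was 74 bases before the start in Slfn1, 73 in Slfn4, 55 in Slfn2 and 42 in Slfn3. In Slfn1 and Slfn4 the shared run extended to 15 bases, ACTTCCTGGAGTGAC, and in Slfn1 and Slfn2 to 12, CACTTCCTGGAG. The interferon-type core, which resembles the element read by interferon-activated factors, stood upstream of the long members Slfn5, Slfn8 and Slfn9 and of 2.98% of all windows. The window of Slfn14, another long Schlafen gene of the cluster and outside the rule, held neither motif. In Slfn8 and Slfn9 it read TTTCGTTTTC along the gene, beginning 48 and 45 bases before the start, and these windows also shared a run of 20 bases. In Slfn5 it read GAAAAAGAAA, beginning 155 bases before the start, within a stretch rich in adenine. A further motif searched, TTCNNNGAA on both strands, stood in 0 of the 7 Schlafen windows and in 7.02% of all windows. Slfn8 has a further start in the table, and only the first listed was used. A match describes the letters in this window and shows neither binding nor a cause of any array value.

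The arrays had median intensities of 137 (control) and 137 (knockout). Probes of random sequence, 5000 per array, gave background levels of 71.3 and 75.7. Washc1, the gene of the WASH protein, was at 119 and 107, so at these dim levels it does not check the genotype labels. Of the 11 stem cell markers, 5 were higher and 6 lower, with 1 at least 2-fold lower. That one was Mecom, a transcription factor gene of stem cells, at 350.1 and 163 (-1.10) with its brightest sequence, while its 6 sequences ranged from -1.65 to 0.49. Meis1, another such factor, was at 93.6 and 182 (0.96). Kit was at 398 and 489, Cd34 at 746 and 1105, Ly6a at 835 and 596 and Slamf1 at 147 and 123. Procr, Tek and Fgd5 were below the random-sequence level on both arrays.

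Slfn1, a short member and the one whose forced expression arrests growth, measured 716 intensity units in control cells and 134 in knockout cells. The control value was 10.0 times the random-sequence level and the knockout value 1.77 times, so the knockout value lay close to background while the control value stood well clear of it. The log2 difference (knockout minus control throughout) was -2.42, a 5.35-fold lower value. Slfn1 was the only Schlafen sequence above the 75th percentile of either array, at percentile 89.1 of the control array and 49.1 of the knockout array. Over all sequences, 51 were as low or lower in difference, or 0.115%, and over genes 24 were, with Slfn1 itself included in both counts. A single sequence of 3 probes measured it (MM9, chromosome 11, 82930351 to 82936172), so no other sequence of this gene was there to compare.

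Slfn4, an intermediate member known from macrophages and other myeloid cells, measured 88.8 in control and 32.7 in knockout cells. Its log2 difference was -1.44, but the knockout value was below the random-sequence level of that array. Set against that level, the control value was at least 1.17-fold higher, so the size of the Slfn4 difference is not fixed by these arrays. Slfn3, another intermediate member, whose gene lies next to Slfn4, went the other way. It measured 125 in control and 181 in knockout cells, a log2 difference of 0.54 with both values above the random-sequence level. Slfn4 spans 82988687 to 83003718 and Slfn3 83004893 to 83028642 on chromosome 11 (MM9).

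Slfn9, a long member, had 2 sequences that overlap along the gene. The first (82794681 to 82801804) measured 243 in control and 121 in knockout cells, a log2 difference of -1.005, just past the 2-fold size at 2.01-fold. The second (82795655 to 82804639) was at 149 and 120, a difference of -0.31. Both sequences of Slfn9 were lower in the knockout, but their differences lay 0.69 apart. The spread within a gene was 0.66 (log2 SD), over 4969 genes having more than one sequence above the median of either array, called the detected range below. That spread covers probe noise and transcript forms, not differences between animals.

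Slfn5, a long member with a nuclear role in interferon responses, had 3 overlapping sequences, all higher in the knockout. The sequence at 82765603 to 82772304 measured 134 in control and 173 in knockout cells, a log2 difference of 0.36. The sequence at 82768162 to 82776443 was at 93.7 and 165, a difference of 0.82. The sequence at 82768244 to 82775882 was at 54.7 and 87.2, a difference of 0.67. Its control value was below the random-sequence level, so it is given as at least 1.22-fold higher. By measured value none of the 3 reached 2-fold, but for the third only the bound holds.

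**Figure D1:**
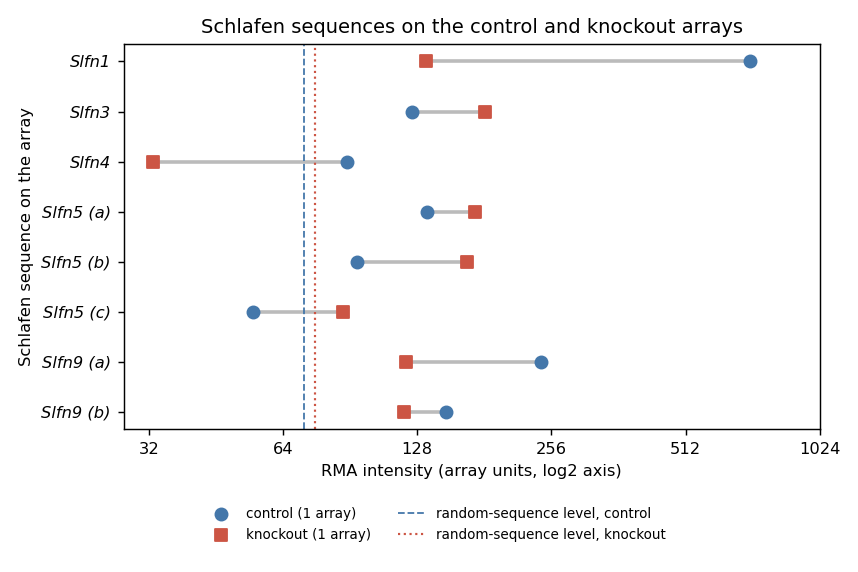
RMA intensity (log2 axis) of the 8 Schlafen sequences on the control array (circles) and the knockout array (squares), with 1 array per genotype and no error bars; letters separate sequences of a gene by their start, and dashed and dotted lines mark the random-sequence level of each array. Slfn1 has the widest gap, from 716 to 134, while the knockout value of Slfn4 and the control value of Slfn5 (c) lie left of their lines.

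Within the family, 4 sequences were higher and 4 lower, with a median log2 difference of 0.02 beside 0.01 over all sequences. That median counts Slfn5 3 times and Slfn9 2 times. With 1 value per gene, 3 of 5 genes were lower, and the median was -1.005 by the brightest sequence and -0.66 by the mean of a gene's sequences. By measured value, Slfn1, Slfn4 and the first Slfn9 sequence were at least 2-fold lower, 3 of 8, where 6.77% of all sequences were. By the same measure none of the 8 was at least 2-fold higher, where 5.98% of all sequences were. The largest difference short of 2-fold was the 0.82 of Slfn5. These counts include the value that led to the choice of the family, and nothing is read from them. Of the 8 sequences, 6 were in the detected range, and 6 were above the random-sequence level on both arrays.

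Slfn1 was set against its paralogues by their differences only, since levels of separate probes are not comparable. The 7 sequences of the other 4 genes ranged from -1.44 to 0.82 by measured value, with a median of 0.36, and Slfn1 lay 2.78 below that median. The lowest of those above the random-sequence level on both arrays was the first Slfn9 sequence, at -1.005. With the brightest sequence of each paralogue the gap to the median was -2.10. The bases of the array probes are not used here, so whether a probe also binds a near-identical paralogue was not tested. Slfn9 and Slfn10-ps are close relatives in the cluster, and their separate values are given as uncertain.

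**Figure D2:**
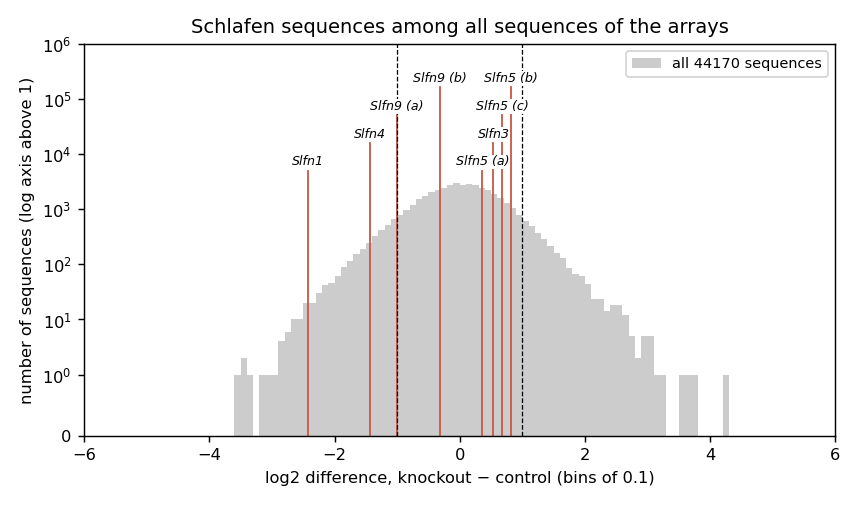
Number of sequences (log axis above 1) by log2 difference, knockout minus control, in bins of 0.1 for all 44170 sequences; red lines mark the Schlafen sequences (their height has no meaning) and dashed lines the 2-fold size. Slfn1 at -2.42 lies in the lower tail, with 51 sequences (itself included) as low or lower. The Slfn3 and Slfn5 sequences lie between 0.36 and 0.82.

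Relatives outside the rule were also measured on the array. Slfn10-ps, a long-form pseudogene of the cluster, was at 264 and 230 with its brighter sequence (-0.20). Its dimmer sequence was at 97.2 and 54.6 (-0.83), with the knockout value below the random-sequence level. Slfn14, a ribosome-associated nuclease of red cell and platelet precursors, was at 56.5 in the control, below the random-sequence level, and at 118 in the knockout. It was at least 1.65-fold higher there. Gm11427, which the array annotation calls similar to Slfn4, was below that level on both arrays. Slfnl1, a Schlafen-like gene on chromosome 4, was at 89.8 and 70.7.

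Slfn5os, a non-coding RNA transcribed from the strand opposite to Slfn5 and overlapping it, measured 214 in control and 87.6 in knockout cells. Its log2 difference of -1.29 ran against the 3 Slfn5 sequences, which were higher by 0.36 to 0.82. The array has 1 sequence for Slfn5os, and its knockout value was 1.16 times the random-sequence level. An unnamed sequence between Slfn10-ps and Slfn1 (82879253 to 82884748, MM9) was at 327 and 136, a difference of -1.27. In the RefSeq gene order Slfn2 is the only Schlafen gene between Slfn10-ps and Slfn1, so this sequence may belong to Slfn2. Whether it does was not tested, and it is left out of the family counts.

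Along the chromosome, Slfn1 lay in an unbroken run of 8 sequences with lower values in the knockout. The run held both Slfn9 sequences, Gm11425, both Slfn10-ps sequences, the unnamed sequence, Slfn1 and Slfn4, and it ended at Slfn3. Lower values, of any size, were found for 49.3% of all sequences. The run was noticed after the values were seen. Outside it the nearest genes differed in both directions. Unc45b, a myosin chaperone before Slfn5, was at 245 and 599 with its brighter sequence, a difference of 1.29. Its other sequence, below the random-sequence level in the control, was at least 1.67-fold higher. The DNA repair gene Rad51d was at 1827 and 1934 (0.08). After Slfn3, AI662270 was at 616 and 603 with its brighter sequence (-0.03). Over 14 named genes of the region with 31 sequences, within 500000 bases and with Slfn5os and Gm11425 inside the cluster included, 4 sequences (12.9%) passed 2-fold upwards and 2 downwards by measured value, beside 5.98% and 6.77% of all sequences. Their median was 0.21.

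**Figure D3:**
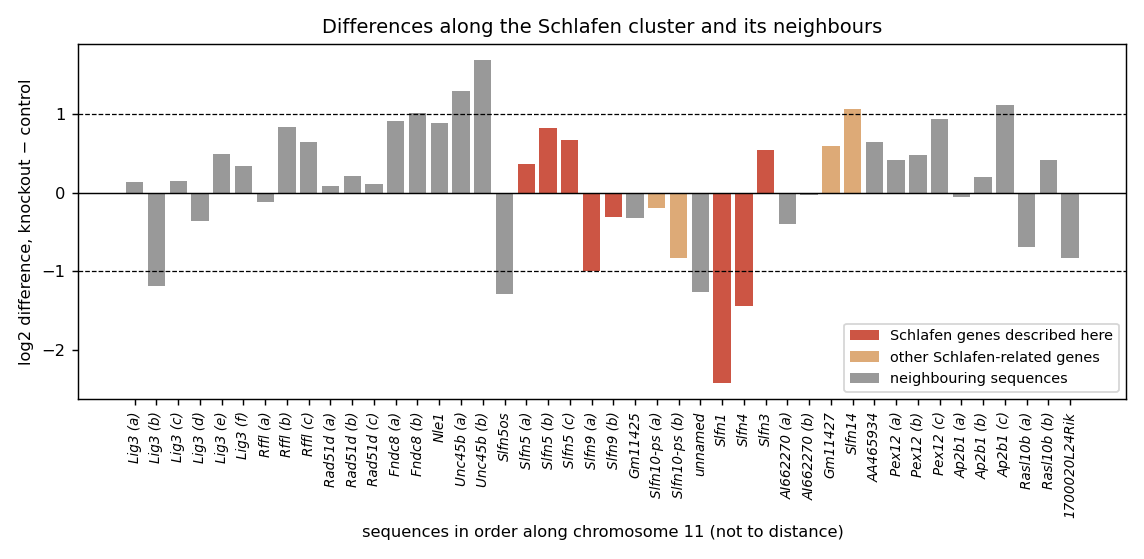
Log2 difference, knockout minus control, for each sequence in its order along chromosome 11 (not to distance): Schlafen genes of the rule in red, relatives in tan and neighbouring sequences in grey, with dashed lines at the 2-fold size and 1 array per genotype. The bars from Slfn9 to Slfn4 all point down, with Slfn1 the longest at -2.42, and those of Slfn5 and Slfn3 on either side point up.

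Interferon-induced genes, the pathway to which several Schlafen genes belong, differed in both directions. Of 42 measured, 6 were lower by 2-fold or more and 2 higher by as much, beside 6.42% and 5.94% of all genes, with a median of -0.04 beside 0.02 over all genes. The antiviral genes Ifit1 (196 and 89.0, log2 difference -1.14), Eif2ak2, the double-stranded RNA kinase (391 and 179, -1.13), and Ifitm3, which blocks virus entry (3144 and 1482, -1.08), were lower. Gbp3, a guanylate-binding protein, was at least 1.60-fold lower with its brightest sequence, whose knockout value was below the random-sequence level. Its 2 sequences ranged from -1.19 to -0.11, so that bound is not one for the gene. Of the other genes counted as lower, the sequences of Oas2 ranged from -1.19 to 0.08 and those of Ifi27 from -1.09 to -0.05. Ifit1, Eif2ak2 and Ifitm3 had 1 sequence each. Isg20, an antiviral exonuclease, was higher (489 and 1519, 1.64), as was Rsad2, which encodes viperin (580 and 1265, 1.12). All sequences of Isg20 and Rsad2 were higher, from 0.82 to 1.64 and from 1.01 to 1.12. Of the list's genes above the random-sequence level on both arrays, Ifit1 had the lowest difference.

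By the measured value of the brightest sequence, none of the 12 interferon receptor and signalling genes reached 2-fold in either direction. Their median was 0.28. Socs1, an inhibitor of cytokine signalling, was below the random-sequence level in the control and at least 1.27-fold higher in the knockout. Ifnar2, a chain of the type I interferon receptor, was at 7487 and 4747 (-0.66) with its brightest sequence. Its 4 sequences ranged from -1.02 to -0.17, so the lowest passed 2-fold.

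The genes that restrain division, a function ascribed to Slfn1, did not share its direction as a list. Of 13 quiescence regulators, 8 were higher and 5 lower, with a median of 0.25. Of the 8 genes of the D-type cyclin axis, 1 was at least 2-fold lower and 1 higher, with a median of -0.003. Ccnd1, the cyclin D1 gene that Slfn1 is reported to hold down, was itself lower, at 214 and 79.7 (-1.42), with the knockout value 1.05 times the random-sequence level. Ccnd2, another D-type cyclin, was at 17289 and 13964 (-0.31). Dnajb6, a chaperone reported to bind Slfn1, was at 2581 and 2310 (-0.16). Rb1, below the random-sequence level in the control, was at least 1.80-fold higher.

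Markers of other blood cells also differed between the arrays, and their values stand here beside those of Slfn1 and Slfn4. Of 12 granulocyte and monocyte markers, 5 were lower by 2-fold or more and 1 higher by as much. Their median was -0.94, and their summed intensity went from 139083 to 53938. The higher one was Csf1r, whose 3 sequences ranged from -0.26 to 1.19. Of the lower ones, Csf3r had 2 sequences, at -1.12 and -0.19. S100a8, a calprotectin gene, was at 47334 and 16696. All 10 erythroid markers were higher, 7 of them at least 2-fold, with a median of 1.68 and a summed intensity of 10064 and 55452. The sums mostly reflect the brightest sequences of a list, such as S100a8 above and, for the erythroid list, Hbb-b1 at 5699 and 43218. Of 12 T and NK cell markers, 1 was lower by 2-fold, the granzyme gene Gzmb at 756 and 121 (-2.64). With its brightest sequence 1 was higher by as much, Klrb1c, but its 3 sequences ranged from -1.24 to 1.28. The list had a median of 0.09 and a summed intensity of 5146 and 4660. Cd3g, Cd3d, Gzma and Trat1 of that list were below the random-sequence level on both arrays, while Cd3e was at 483 and 522. Medians were -0.05 for 9 B cell markers, 0.23 for 7 macrophage and dendritic cell markers and -0.02 for 5 megakaryocyte markers, of which 2 were at least 2-fold lower. The part of any such cells in the Slfn1 or Slfn4 values was not tested.

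**Figure D4:**
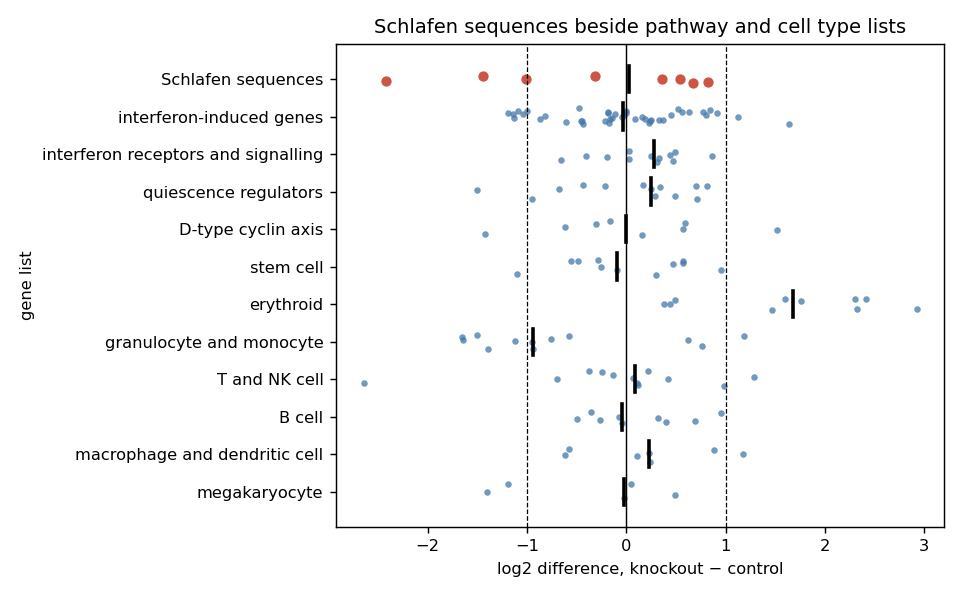
Log2 difference, knockout minus control, of each gene (brightest sequence; points spread vertically for sight) in the pathway and cell type lists, with the 8 Schlafen sequences on top in red, black bars for medians and dashed lines at the 2-fold size. The erythroid median lies at 1.68 and the granulocyte and monocyte median at -0.94, and the interferon-induced median at -0.04. The Schlafen median is 0.02 over its 8 sequences and -1.005 with the brightest sequence of each gene, the basis of the lists.

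The genes most like Slfn1 in difference were sought among 7101 genes above the 75th percentile of both arrays, where likeness over 2 arrays is only a difference of similar size. Slfn1 itself was at percentile 49.1 of the knockout array. Other genes that fell to such dim levels were therefore left out of the search. The 5 nearest were Il1f9, an interleukin-1 family cytokine (-2.39), Serpinb1c, a protease inhibitor of leukocytes (-2.35), Anxa1, the annexin A1 gene (-2.28), Gcnt2, a glycan-branching enzyme (-2.28), and Fcgr2b, the inhibitory Fc receptor (-2.18). Il1f9 was at 2041 and 390.4, and its other sequence was lower by -1.59. Anxa1 was at 4688 and 964, and its other sequence was lower by -1.64. The other sequence of Gcnt2 differed by only -0.19, and the 3 sequences of Fcgr2b ranged from -2.18 to 1.03, so for these the likeness held for the brightest sequence alone.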

How the data were processed

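The authors deposited 1 linear intensity per sequence and array, made with RMA (background correction, normalization between arrays, summary of probes) per the submitters' processing notes, without a version. Per the file headers, 44155 of 44170 sequences rest on 3 probes and coordinates are MM9. RMA aligns the arrays' distributions, so a shift of most genes one way would not show. The deposited series table repeats these intensity values for sequences at 50 or more on both arrays, which leaves out Slfn4.

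Intensities were turned to log2 without further scaling (Python 3.11.15, pandas 2.3.3, numpy 2.4.6), and symbols were updated by gene identifier through the RefSeq table. In lists, the brightest sequence stands for a gene. For "at least" folds a value below the random-sequence level was set to it; counts and medians keep measured values. A fixed 2-fold size replaced a test. It was tried on simulated data with large planted differences and little noise, which does not show how reliable the counts are here. The rule for names took all Schlafen sequences, relatives, neighbours (up to 6 genes a side), up to 5 genes per list at 2-fold (otherwise 2) and the 5 genes nearest Slfn1; other list genes are examples chosen after their values were seen, and some list genes are not reported here. Members and lists were chosen with earlier results of these data known. Alternatives were the series table, centring, quantile normalization, loess (span 0.3, statsmodels 0.14.6), an offset, filters on dim sequences, and other folds and summaries. Precision is limited by the number of arrays and by closeness to background.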

Additional observations from a re-analysis of the deposited data

How the results depend on the processing

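No paired analysis was possible because neither genotype had a second array. Slfn1 was between -2.44 and -1.91 under the 4 alternatives that rescale values (centring, quantile normalization, loess and an offset before the log, which gave -1.91). The series table, the filters and the floor leave its values as they are, so they do not bear on its stability. The Schlafen sequences kept their signs with centring, quantile normalization and loess. Slfn1 lay between -2.87 and -2.10 from the paralogue median over 9 alternatives, at -2.10 with the brightest sequence of a gene. No value could be had for that gap above percentile 75 of either array, since only Slfn1 passed, through its control value. The median of the Schlafen sequences was -2.42 there (Slfn1 alone), -0.66 with the mean of the sequences of a gene and -1.005 with the brightest sequence, with Slfn5 and Slfn9 each counted as 1 gene in both. The 3 sequences at least 2-fold lower became 1 with the offset, 1 above percentile 75 and 1 at 3-fold, and at 1.5-fold 2 were higher. The floor at the random-sequence level, chosen after seeing the data, left 2 lower, as did the series table, which leaves out Slfn4. The interferon-induced median stayed between -0.19 and 0.01 over 9 alternatives.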
